A study of Mus musculus with 9 samples.

Results

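The genes described here encode the chemokines and their receptors. They were taken by a rule on symbols, which was set with earlier results of these data known. The rule took every gene whose symbol starts with Ccl, Cxcl, Ccr, Cxcr or Ackr followed by a digit. It added Xcl1, Xcr1, Cx3cl1 and Cx3cr1 and left out Ccr3. Of 19937 genes tested on the arrays, 55 fitted this rule and were measured, 34 of them ligands and 21 receptors. A further 6 genes (Ccl21a, Ccl21b, Ccl21c, Ccl21d, Ccl27a and Ccl27b) share probe sets that carry several symbols and were left out. Another 4 genes that fit the rule, all chemokine pseudogenes, were not analysed here. A gene was represented by 1 probe set, the brightest over all arrays. Ccl19 (4 probe sets) and Ccl25 (2 probe sets) were the members for which a choice was needed.

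The cells were a murine acute myeloid leukaemia line with the genotype MLL-AF9/NrasG12D on a B6/SJL(CD45.2) background, and all 9 arrays share this line. The cells carried an MSCV-based retroviral vector (LMN) with an shRNA, and RNA was taken at day 5. In the control group the shRNA targeted Renilla luciferase (Rluc), a gene foreign to mouse cells. In the other groups it targeted Eed or Suz12, whose products are required parts of PRC2, the Polycomb enzyme complex that methylates histone H3 at silenced genes. Each group held 3 arrays, and the study asked which genes lie downstream of PRC2 in these cells. The model is a single line, and no label states that replicate arrays came from separate cultures or transductions. The p-values therefore rest on the spread between these samples alone, and that spread may be technical.

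Values are log2 RMA values, and a change is a difference of group means on that scale. They carry no detection call, so a guide to background was set at 6.32, the value under which 95% of 1027 olfactory receptor genes fell in the controls. Array medians lay between 6.86 and 6.95. Eed changed by -1.75 under its own shRNA (adjusted p = 3.1e-07) and Suz12 by -1.98 under its own (adjusted p = 5.44e-08). Markers of the myeloid line (Ptprc, Spi1, Itgam, Mpo, Kit, Cd33, Hoxa9 and Meis1) were above the guide for 8 of 8 genes. None of the markers of B cells and NK cells was above it, and 2 of 4 for T cells, 3 of 5 for stromal cells and 1 of 3 for endothelial cells were. The mean of 5 neutrophil markers lay between 6.80 and 6.94 on the control arrays, 8.34 and 8.35 under Eed shRNA, and 8.76 and 8.89 under Suz12 shRNA. The mean of 4 eosinophil markers lay at 6.74 to 6.82, 8.65 to 8.77 and 8.77 to 8.96, and that of 4 monocyte and macrophage markers at 9.96 to 10.15, 10.66 to 10.78 and 10.68 to 10.73. These marker levels moved with the groups, and their part in the chemokine results below was not tested. In bulk RNA, a change in the share of cells that express a gene and a change in RNA per cell cannot be told apart.

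Chemokines are small secreted proteins that guide migrating cells along concentration gradients. They are sorted into CC, CXC, CX3C and C classes by the spacing of their conserved cysteines, and they bind receptors with 7 membrane-spanning helices that signal through inhibitory G proteins. A chemokine often binds several receptors and a receptor several chemokines, while the atypical receptors (Ackr genes) take up chemokines without G protein signalling. In the marrow, Cxcl12 and Cxcr4 hold stem and myeloid cells in place, Cxcr2 ligands draw out neutrophils, and Ccr2 with its ligand Ccl2 governs the exit of monocytes. Ccr1 is found on monocytes, neutrophils and eosinophils, and Cx3cr1 marks monocytes and their descendants.

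Under each knockdown a small number of chemokine genes moved and most did not. Under Eed shRNA, 13 of the 55 members were called at an adjusted p under 0.05 (23.6%), 10 higher and 3 lower, where 21.8% of all genes were called in that comparison. Under Suz12 shRNA 12 were called (21.8%), 8 higher and 4 lower, where 21.2% of all genes were called. The share of members called was thus near that of all genes. Of the 27 members above the background guide in at least 1 group, 44.4% were called under Eed shRNA and 40.7% under Suz12 shRNA. Of the other 28, 3.57% were called in each comparison. The share of all genes was not split by this guide. Split by direction, 18.2% of members were called higher under Eed shRNA, where 8.78% of all genes were, and 5.45% lower, where 13.1% were. Under Suz12 shRNA 14.5% of members were called higher and 7.27% lower, where 8.25% and 12.9% of all genes were. The median change of the 55 members was 0.02 under Eed shRNA and 0.00 under Suz12 shRNA, where the median of all genes was -0.01 and -0.02.

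Among the ligands, 9 of 34 were called higher (26.5%) and 1 lower (2.94%) under Eed shRNA. Under Suz12 shRNA 7 were called higher (20.6%) and 2 lower (5.88%). Of the 21 receptors, 1 was called higher (4.76%) and 2 lower (9.52%) in each comparison. Of all genes, 8.78% were called higher and 13.1% lower under Eed shRNA, and 8.25% and 12.9% under Suz12 shRNA. The count of ligands called higher was open to single arrays: under Eed shRNA it was 4 without control replicate 3 and 5 without Eed shRNA replicate 1, and under Suz12 shRNA it was 4 without control replicate 3 or any 1 Suz12 shRNA replicate. Under Eed shRNA 2 ligands were called lower without control replicate 3, and under Suz12 shRNA 1 was without any 1 array other than control replicate 3. The receptors called higher became 2 in each comparison without control replicate 1, and 3 under Eed shRNA without Eed shRNA replicate 2. Calls of at least 1.5-fold were made for 4 members higher and 3 lower under Eed shRNA (7.27% and 5.45%), where 1.99% and 0.396% of all genes reached that size. Under Suz12 shRNA 3 were higher and 3 lower (5.45% each), where 2.03% and 0.396% of all genes did. The genes of that size were the ligands Ccl6, Ccl4 and Cxcl10 and the receptors Ccr1, Ccr2 and Cx3cr1 in both comparisons, and Ccl2 in the Eed comparison. Both comparisons use the same 3 control arrays, so their values are given side by side and are not independent of each other. Of the 55 members, 27 had a mean above the background guide in at least 1 group, 17 ligands and 10 receptors. The 42 members not called under Eed shRNA changed by -0.14 to 0.40, 40 of them by at most 0.15, and the 43 not called under Suz12 shRNA changed by -0.11 to 0.35, 40 of them by at most 0.15.

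**Figure D1:**
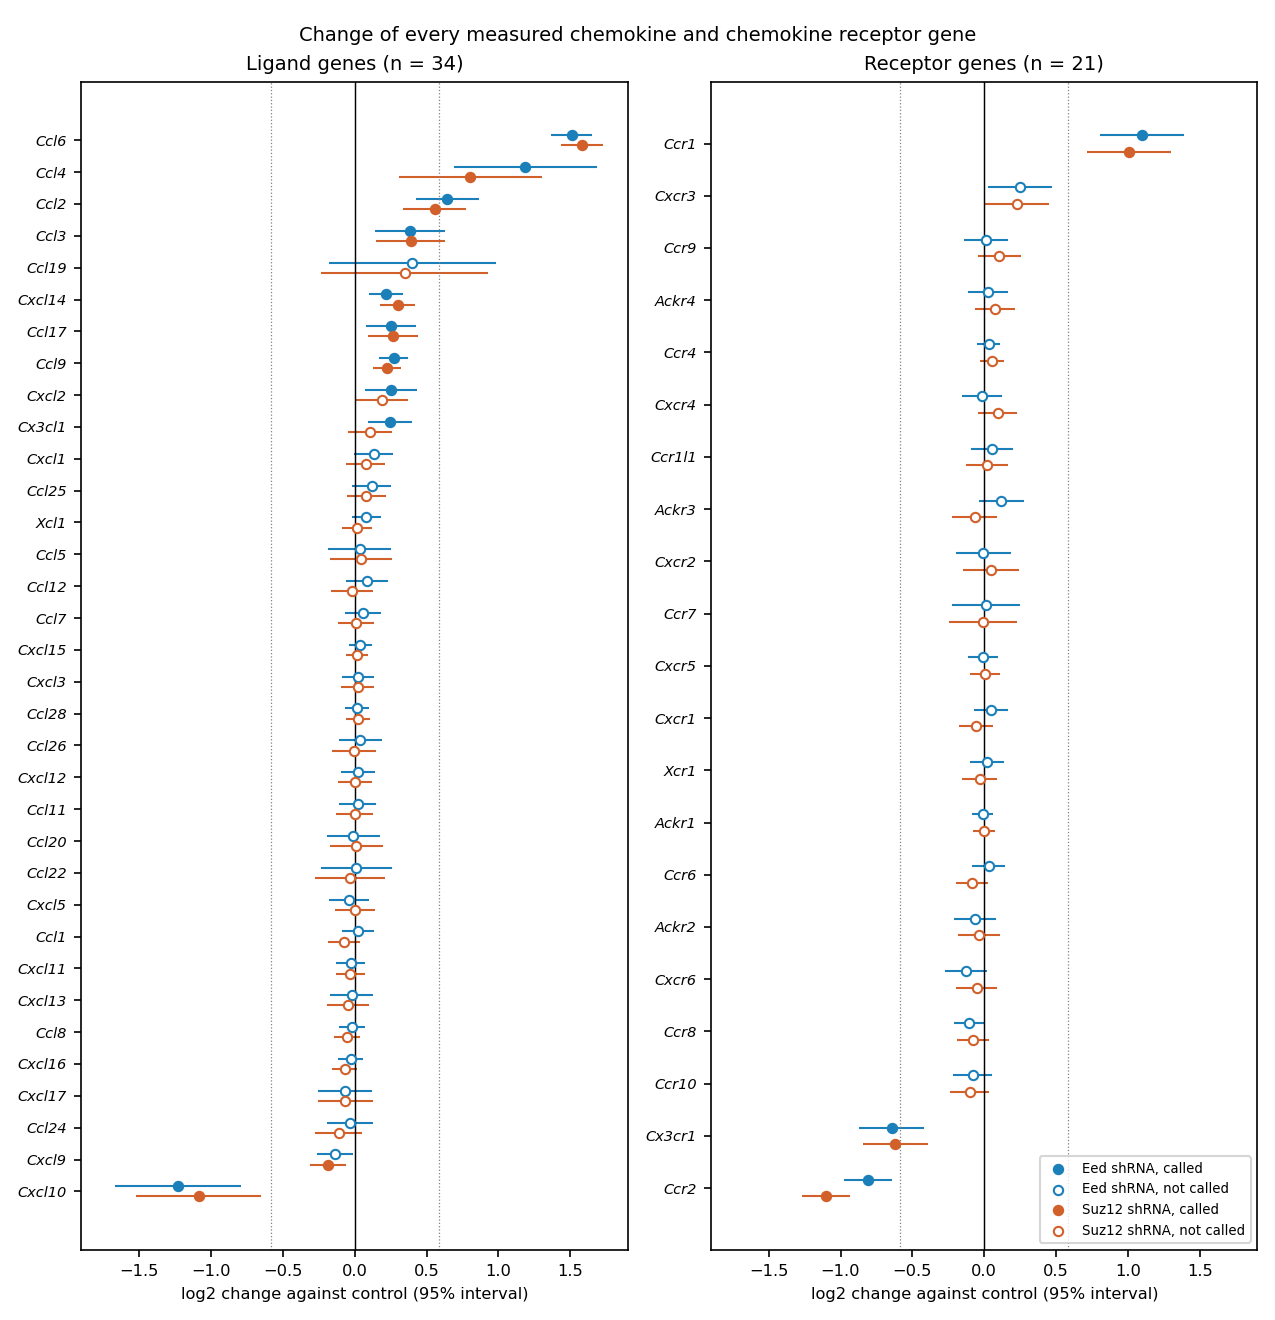
Change of every measured ligand gene (34) and receptor gene (21) against control on the log2 scale, with the 95% interval of the fit; filled points were called at an adjusted p under 0.05, open points were not, and dotted lines mark a 1.5-fold change. Ccl6, Ccl4 and Ccr1 lie farthest to the right and Cxcl10, Ccr2 and Cx3cr1 farthest to the left, and most other genes lie close to 0.

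The stretches before the start sites of 4 of these genes are shown to set a ligand and a receptor that rose (Ccl6, Ccr1) beside a ligand and a receptor that fell (Cxcl10, Ccr2). Each holds the 250 bases before the annotated start, 5′ to 3′ on the gene's own strand, from RefSeq on GRCm38.p6. Capitals mark matches, on either strand, to the interferon-stimulated response element (ISRE, searched as GAAA, any 2 bases and GAAA), the NF-kB consensus and the AP-1 site (searched as TGANTCA). The Cxcl10 stretch is chr5:92348890-92349139 on the minus strand and the Ccl6 stretch is chr11:83593088-83593337 on the minus strand. The Ccr1 stretch is chr9:123968693-123968942 on the minus strand and the Ccr2 stretch is chr9:124101933-124102182 on the plus strand.
Cxcl10: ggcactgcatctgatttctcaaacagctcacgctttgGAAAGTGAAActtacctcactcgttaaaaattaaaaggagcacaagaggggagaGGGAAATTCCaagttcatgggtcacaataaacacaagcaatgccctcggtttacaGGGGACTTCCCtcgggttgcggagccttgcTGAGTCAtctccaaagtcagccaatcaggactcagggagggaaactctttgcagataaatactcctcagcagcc
Ccl6: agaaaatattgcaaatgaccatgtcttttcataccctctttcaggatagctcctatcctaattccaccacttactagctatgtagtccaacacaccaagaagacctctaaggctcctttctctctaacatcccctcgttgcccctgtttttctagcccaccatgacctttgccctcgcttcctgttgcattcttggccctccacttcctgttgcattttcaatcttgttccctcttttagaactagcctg
Ccr1: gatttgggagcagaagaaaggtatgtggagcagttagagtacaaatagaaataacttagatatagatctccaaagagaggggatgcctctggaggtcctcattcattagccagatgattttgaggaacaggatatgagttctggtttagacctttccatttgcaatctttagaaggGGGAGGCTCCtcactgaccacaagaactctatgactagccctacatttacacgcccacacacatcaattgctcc
Ccr2: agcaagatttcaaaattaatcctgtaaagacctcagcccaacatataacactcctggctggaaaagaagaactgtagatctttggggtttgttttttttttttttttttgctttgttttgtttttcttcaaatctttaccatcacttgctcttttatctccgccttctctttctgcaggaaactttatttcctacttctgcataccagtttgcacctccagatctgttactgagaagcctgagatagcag
The Cxcl10 stretch held 1 ISRE match, 213 to 204 bases before the start, NF-kB matches at 159 to 150 and 104 to 94 bases, and 1 AP-1 match at 74 to 68 bases. The Ccr1 stretch held 1 NF-kB match, at 74 to 65 bases, and none of these letters were found in the Ccl6 and Ccr2 stretches. Over the 43 windows of the 41 members matched by symbol, 3 held an ISRE match (6.98%), 10 an NF-kB match (23.3%) and 3 an AP-1 match (6.98%). Over all 32851 windows in the table the shares were 2.98%, 7.25% and 6.75%. The other 14 members had no window, among them the called ligands Ccl2 and Ccl4. The ISRE matches were those of Cxcl10, Ccl19 and Cxcl14, and the AP-1 matches those of Ccl9, Ccr4 and Cxcl10. Of the 10 NF-kB matches, 4 were in windows of called members (Ccl9, Ccr1, Cxcl10 and Cxcl2). The rest were those of Ackr2, Ccl1, Ccl20, Ccr6, Cxcl1 and Cxcl3, which were not called. Member windows held a median of 3 CpG dinucleotides (quartiles 2 and 6.5) and all windows a median of 6 (quartiles 2 and 16). The stretches shown held 5 CpG dinucleotides for Cxcl10, 2 for Ccl6 and 1 each for Ccr1 and Ccr2. A match of letters is a description of the sequence and not a bound site.

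Ccl6 rose most among the ligands. It encodes C10, a rodent CC chemokine that attracts macrophages and binds Ccr1. It read 8.88, 8.95 and 8.99 on the control arrays, 10.58, 10.34 and 10.43 under Eed shRNA, and 10.45, 10.59 and 10.52 under Suz12 shRNA. Every knockdown array was above every control array, and the 3 arrays of a group lay close together. The rise was 1.51 under Eed shRNA (2.85-fold, SE 0.06, adjusted p = 2.89e-07) and 1.58 under Suz12 shRNA (2.99-fold, SE 0.06, adjusted p = 1.96e-07). Ccl9, its close relative, encodes MRP-2, also known as MIP-1 gamma, and is another Ccr1 ligand of rodents. It read 12.52, 12.64 and 12.63 in the controls, 12.89, 12.89 and 12.82 under Eed shRNA, and 12.81, 12.80 and 12.86 under Suz12 shRNA. Its groups did not overlap with the controls either, but its rise was small, 0.27 (SE 0.04, adjusted p = 0.00148) and 0.23 (SE 0.04, adjusted p = 0.00455). Both genes were called in both comparisons under every one of 17 other ways of processing or leaving out an array.

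Ccl3 and Ccl4 encode the macrophage inflammatory proteins MIP-1 alpha and MIP-1 beta, which attract monocytes and T cells, and Ccl3 is a ligand of Ccr1. Ccl4 read 8.03, 8.98 and 7.87 in the controls, 9.53, 9.43 and 9.49 under Eed shRNA, and 9.11, 9.05 and 9.14 under Suz12 shRNA. Control replicate 2 stood well above the other two controls and just under the Suz12 shRNA arrays, and the control SD was 0.60 where that of each knockdown was 0.05. Ccl4 rose by 1.19 under Eed shRNA (2.28-fold, SE 0.22, adjusted p = 0.00318) and by 0.81 under Suz12 shRNA (1.75-fold, SE 0.22, adjusted p = 0.0263). Without control replicate 2 the changes were 1.53 (adjusted p = 1.16e-06) and 1.15 (adjusted p = 5.5e-06). The Suz12 call did not survive leaving out control replicate 1 (0.68, adjusted p = 0.0989), control replicate 3 (0.59, adjusted p = 0.0967) or any of Suz12 shRNA replicates 1, 2 and 3 (0.80, 0.83 and 0.79, adjusted p from 0.0632 to 0.0814). It was also lost when the spread came from those 2 groups alone (adjusted p = 0.0778).

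Ccl3 read 12.94, 13.32 and 12.78 in the controls, 13.44, 13.45 and 13.32 under Eed shRNA, and 13.38, 13.42 and 13.42 under Suz12 shRNA. The same control array was again the high one, level with Eed shRNA replicate 3. The rise was 0.39 in each comparison (SE 0.11, adjusted p = 0.0277 under Eed shRNA and 0.0282 under Suz12 shRNA). Without control replicate 2 it was 0.54 in each (adjusted p = 0.000414 and 0.000429). Without control replicate 1 it was 0.35 in each and without control replicate 3 it was 0.27 in each, and neither was called. The Eed call was also lost without Eed shRNA replicate 1 (0.37) or 2 (0.36), and the Suz12 call without Suz12 shRNA replicate 1 (0.40), 2 (0.38) or 3 (0.38). With the spread from the 2 groups compared, the adjusted p was 0.0833 and 0.0721. Ccl5, which encodes RANTES, another ligand of Ccr1, was not called, with changes of 0.03 and 0.04. Its arrays read 7.39, 7.56 and 7.20 in the controls, 7.47, 7.39 and 7.39 under Eed shRNA, and 7.30, 7.62 and 7.35 under Suz12 shRNA, so that all 3 groups overlapped.

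Ccl2 encodes MCP-1, the main Ccr2 ligand and an attractant of monocytes. It read 7.64, 7.68 and 7.37 in the controls, 8.33, 8.14 and 8.15 under Eed shRNA, and 8.02, 8.31 and 8.04 under Suz12 shRNA. All 6 knockdown arrays were above all controls. The rise was 0.64 under Eed shRNA (1.56-fold, SE 0.10, adjusted p = 0.000987) and 0.56 under Suz12 shRNA (1.47-fold, SE 0.10, adjusted p = 0.00238), and it was called under all 17 alternatives in both comparisons. The other genes grouped as monocyte chemoattractants were not called: Ccl7 changed by 0.06 and 0.01, Ccl8 by -0.02 and -0.05, and Ccl12 by 0.08 and -0.02. Of these, Ccl8 and Ccl12 were not above the guide in any group.

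Cxcl10 encodes IP-10, an interferon-induced ligand of Cxcr3, the receptor of activated T cells and NK cells. It read 9.05, 9.78 and 8.98 in the controls, 7.96, 8.29 and 7.87 under Eed shRNA, and 8.29, 8.29 and 7.96 under Suz12 shRNA. Every knockdown array was below every control, and control replicate 2 was the highest of the controls, as it was for Ccl3 and Ccl4. Cxcl10 fell by 1.23 under Eed shRNA (2.34-fold, SE 0.20, adjusted p = 0.00125) and by 1.08 under Suz12 shRNA (2.12-fold, SE 0.20, adjusted p = 0.00274). Without control replicate 2 the changes were -0.97 and -0.83, still called. The related genes Cxcl9 and Cxcl11 were below the guide. Cxcl9 encodes MIG, and Cxcl11, the gene of I-TAC in other mammals, is annotated as a transcribed pseudogene in the mouse reference used. Cxcl9 read 6.04, 6.07 and 5.85 in the controls, 5.85, 5.85 and 5.86 under Eed shRNA, and 5.78, 5.77 and 5.85 under Suz12 shRNA, below the guide throughout. It changed by -0.14 under Eed shRNA, which was not called (adjusted p = 0.128), and fell by 0.19 under Suz12 shRNA (adjusted p = 0.0407), a call that was lost in 10 of 16 alternatives and with overlapping arrays. Cxcl11 changed by -0.03 in each comparison and was not called.

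**Figure D2:**
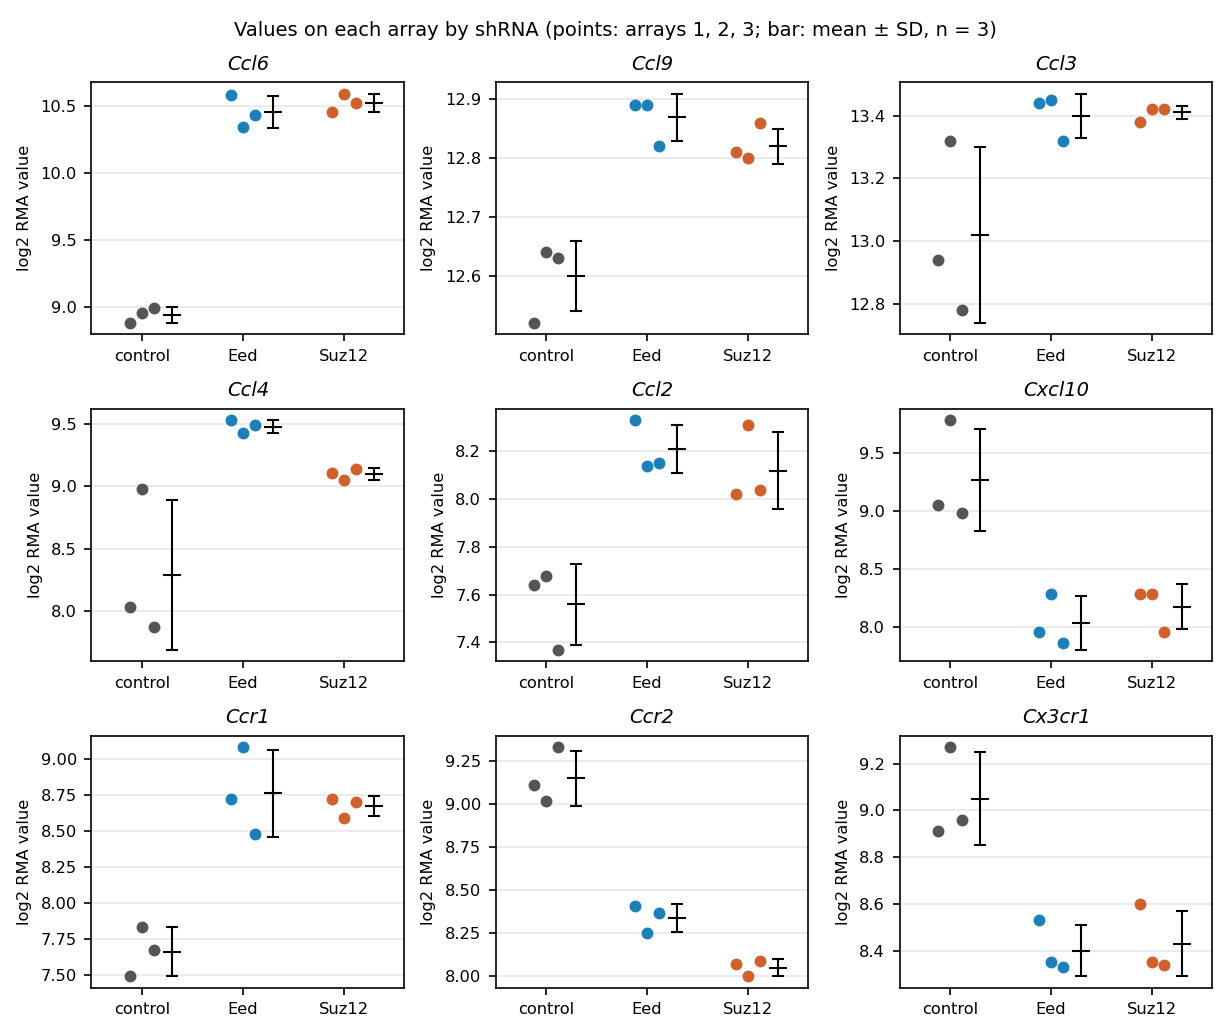
Log2 RMA value on each array for 9 members by shRNA group; points are arrays 1, 2 and 3 of a group and bars the mean and SD (n = 3). Ccl6, Ccl2 and Ccr1 are higher and Cxcl10, Ccr2 and Cx3cr1 lower on all 6 knockdown arrays than on the 3 controls. Control replicate 2 is the highest control for Ccl9, Ccl3, Ccl4, Ccl2, Cxcl10, Ccr1 and Cx3cr1.

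Smaller changes were called for 4 other ligands. Cxcl14 encodes BRAK, a chemokine of epithelia. It read 7.29, 7.09 and 7.12 in the controls, 7.40, 7.38 and 7.38 under Eed shRNA, and 7.43, 7.52 and 7.45 under Suz12 shRNA, with no overlap between control and knockdown arrays. It rose by 0.22 (adjusted p = 0.0148) and 0.30 (adjusted p = 0.00285). The Eed call was lost without control replicate 2 (0.18), control replicate 3 (0.20) or Eed shRNA replicate 1 (0.21), while the Suz12 call held in all 17 alternatives. Ccl17 encodes TARC, a Ccr4 ligand made by dendritic cells. It read 6.44, 6.41 and 6.16 in the controls, 6.55, 6.50 and 6.70 under Eed shRNA, and 6.55, 6.58 and 6.66 under Suz12 shRNA. The lowest of these, control replicate 3, stood apart from the other controls. Ccl17 rose by 0.25 (adjusted p = 0.0433) and 0.26 (adjusted p = 0.0365), and these calls were lost in 8 and 7 of 17 alternatives, among them leaving out control replicate 3 (0.16 and 0.17). Ccl22, the other Ccr4 ligand, changed by 0.01 and -0.03 and was not called.

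Cx3cl1 encodes fractalkine, a membrane-anchored chemokine that is the ligand of Cx3cr1. It read 7.01, 6.84 and 6.73 in the controls, 7.04, 7.08 and 7.20 under Eed shRNA, and 6.98, 6.94 and 6.98 under Suz12 shRNA. The Eed shRNA arrays lay just above the controls and the Suz12 shRNA arrays overlapped with them. It rose by 0.25 under Eed shRNA (adjusted p = 0.0261) and changed by 0.11 under Suz12 shRNA, not called (adjusted p = 0.356). The difference between the knockdowns was not called either (-0.14), and the Eed call did not hold when control replicate 2 (0.24), control replicate 3 (0.18), Eed shRNA replicate 2 (0.26) or Eed shRNA replicate 3 (0.20) was left out. Cxcl2 encodes MIP-2, a Cxcr2 ligand that attracts neutrophils. It read 5.25, 5.36 and 5.26 in the controls, 5.60, 5.38 and 5.64 under Eed shRNA, and 5.44, 5.63 and 5.37 under Suz12 shRNA, all below the background guide. It rose by 0.25 under Eed shRNA (adjusted p = 0.0497), a call lost in 9 of 16 alternatives, and changed by 0.19 under Suz12 shRNA (adjusted p = 0.14). The other neutrophil-attracting CXC genes, Cxcl1, Cxcl3, Cxcl5 and Cxcl15, were not called in either comparison, with Cxcl1 at 0.13 and 0.08.

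The tissue and lymphoid chemokines showed little. Of 10 measured, Cxcl14 alone was called in either comparison. Cxcl12, the marrow ligand of Cxcr4, was below the guide at 6.16, 6.17 and 6.14 in the controls and changed by 0.02 and 0.00. Ccl19, a ligand of Ccr7 that guides dendritic cells and T cells, read 9.76, 9.37 and 9.83 in the controls, 10.41, 9.76 and 9.98 under Eed shRNA, and 9.38, 10.53 and 10.09 under Suz12 shRNA. Its arrays were widely spread within each group, all groups overlapped, and its changes of 0.40 and 0.35 were not called (adjusted p = 0.371 and 0.444). Its 4 probe sets disagreed, with changes from -0.17 to 0.81 under Eed shRNA. The mouse genome holds near-identical copies of Ccl19, so its values are uncertain. Ccl25, the Ccr9 ligand of thymus and gut, changed by 0.12 and 0.08 and was not called. The eotaxin genes Ccl11, Ccl24 and Ccl26, whose products attract eosinophils, were not called in either comparison, with changes from -0.11 to 0.04, beside the rise in eosinophil markers given above. The ligands with the highest control means, which on arrays does not rank the genes by RNA amount, were Ccl3, Ccl9, Ccl19, Cxcl10 and Ccl6.

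Among the receptors, Ccr1 rose and Ccr2 and Cx3cr1 fell. Ccr1 read 7.49, 7.83 and 7.67 in the controls, 8.72, 9.08 and 8.48 under Eed shRNA, and 8.72, 8.59 and 8.70 under Suz12 shRNA. All 6 knockdown arrays were above all controls. Its rise was 1.10 under Eed shRNA (2.14-fold, SE 0.13, adjusted p = 0.000237) and 1.01 under Suz12 shRNA (2.01-fold, SE 0.13, adjusted p = 0.000427). Ccr1l1, a neighbouring receptor-like gene, was below the guide and changed by 0.05 and 0.02.

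Ccr2, the monocyte receptor for Ccl2, read 9.11, 9.02 and 9.33 in the controls, 8.41, 8.25 and 8.37 under Eed shRNA, and 8.07, 8.00 and 8.09 under Suz12 shRNA. The 3 groups did not overlap, with the Suz12 shRNA arrays lowest. Ccr2 fell by 0.81 under Eed shRNA (1.75-fold, SE 0.07, adjusted p = 4.46e-05) and by 1.10 under Suz12 shRNA (2.14-fold, SE 0.07, adjusted p = 5.33e-06). Cx3cr1, the fractalkine receptor, read 8.91, 9.27 and 8.96 in the controls, 8.53, 8.35 and 8.33 under Eed shRNA, and 8.60, 8.35 and 8.34 under Suz12 shRNA. Each knockdown array was below each control, and control replicate 2 was the highest control. Cx3cr1 changed by -0.65 (SE 0.10) under Eed shRNA, a fall of 1.56-fold (adjusted p = 0.00123). Under Suz12 shRNA it changed by -0.62 (SE 0.10), a fall of 1.53-fold (adjusted p = 0.00172). Over the 17 alternatives these changes ran from -0.71 to -0.53 and from -0.70 to -0.50. Ccr1, Ccr2 and Cx3cr1 were called in both comparisons with the control under all 17 alternatives.

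None of the 6 CXC receptors was called. Cxcr4, the marrow retention receptor, read 11.27, 11.08 and 11.28 in the controls, 11.23, 11.11 and 11.24 under Eed shRNA, and 11.36, 11.25 and 11.30 under Suz12 shRNA. The groups overlapped, and the changes were -0.02 and 0.09. Cxcr2, the neutrophil receptor, read 7.47, 7.22 and 7.53 in the controls, 7.46, 7.29 and 7.46 under Eed shRNA, and 7.56, 7.35 and 7.46 under Suz12 shRNA, with changes of -0.01 and 0.05. It was not called, beside neutrophil markers that rose in 4 of 5 genes under Eed shRNA and 5 of 5 under Suz12 shRNA. Cxcr3, the receptor of Cxcl10, read 6.72, 6.41 and 6.47 in the controls, 6.80, 6.60 and 6.94 under Eed shRNA, and 6.70, 6.88 and 6.70 under Suz12 shRNA. Its changes of 0.25 (adjusted p = 0.114) and 0.23 (adjusted p = 0.149) were not called, although both were called without control replicate 1, and the Eed change also without Eed shRNA replicate 2. The 6 lymphoid and tissue CC receptors (Ccr4, Ccr6, Ccr7, Ccr8, Ccr9 and Ccr10) and the 4 atypical receptors were not called in either comparison. The receptors with the highest control means, again no ranking of RNA amounts, were Cxcr4, Ccr2, Cx3cr1, Ccr1 and Cxcr2.

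Set beside each other as known pairs, receptors and ligands did not always move the same way. Ccr1 and its ligands Ccl6, Ccl9 and Ccl3 were all called higher in both comparisons, while Ccl5 and Ccl7, which also bind Ccr1, were not called. Ccr2 was called lower in both comparisons while its ligand Ccl2 was called higher in both. Cx3cr1 was called lower in both, and Cx3cl1 was called higher under Eed shRNA. Cxcl10 was called lower in both, and its receptor Cxcr3 was not called. These are statements on RNA in a bulk culture, and no protein or migration was measured.

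The Eed and Suz12 knockdowns were compared with each other directly, over arrays that share no samples. None of the 55 members was called, where 0.176% of all genes were, and 3 receptors had an unadjusted p under 0.05 in limma. The strongest was Ccr2, lower by 0.29 under Suz12 shRNA (unadjusted 95% interval of the difference -0.45 to -0.12, adjusted p = 0.358), and it was not called under any of the 17 alternatives (adjusted p from 0.11 to 0.867). The others were the scavenging receptor Ackr3 (-0.18, adjusted p = 0.748) and Ccr6 (-0.12, adjusted p = 0.805), neither above the background guide. Ccl4 differed by -0.38, with an interval of -0.88 to 0.11 (adjusted p = 0.877). It was called when control replicate 2 was left out of the shared spread (adjusted p = 0.0384) or when the 2 knockdown groups were fitted alone (adjusted p = 0.0356). The 3 Suz12 shRNA arrays of Ccl4, at 9.05 to 9.14, were all below the 3 Eed shRNA arrays, at 9.43 to 9.53. A p that misses the threshold does not show that the knockdowns act alike.

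Chemokine genes lie in clusters, and the calls are given along them here, with no test of their placement. Runs were taken as members with at most 4 other protein-coding genes between neighbours, by their order in RefSeq on GRCm38.p6, which gave 9 runs with 33 members. On chromosome 11, the run Ccl5, Ccl9, Ccl6, Ccl3 and Ccl4 had 4 of 5 genes called higher in each comparison, with Ccl5 at its edge not called. The other run of chromosome 11, with Ccl2, Ccl7, Ccl11, Ccl12, Ccl8 and Ccl1, had 1 of 6 called higher in each, namely Ccl2. On chromosome 5, Cxcl10 was called lower in both comparisons and its neighbour Cxcl9 lower under Suz12 shRNA, a call that was lost in most alternatives as given above. In the run with Cxcl5, Cxcl3, Cxcl15, Cxcl1 and Cxcl2, 1 of 5 was called higher under Eed shRNA and 0 under Suz12 shRNA. That call, of Cxcl2, was lost in 9 of 16 alternatives. On chromosome 8, Cx3cl1 and Ccl17 were called higher under Eed shRNA and Ccl17 under Suz12 shRNA, with Ccl22 beside them not called. The Cx3cl1 call was lost in 5 of 17 alternatives, and the Ccl17 calls in 8 and 7. On chromosome 9, the run Ccr9, Cxcr6, Xcr1, Ccr1, Ccr1l1 and Ccr2 held the receptor that rose and the monocyte receptor that fell, close neighbours with opposite calls, and its other 4 genes were not called. Cx3cr1, which fell, lies next to Ccr8 elsewhere on chromosome 9, and Ccr8 was not called.

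**Figure D3:**
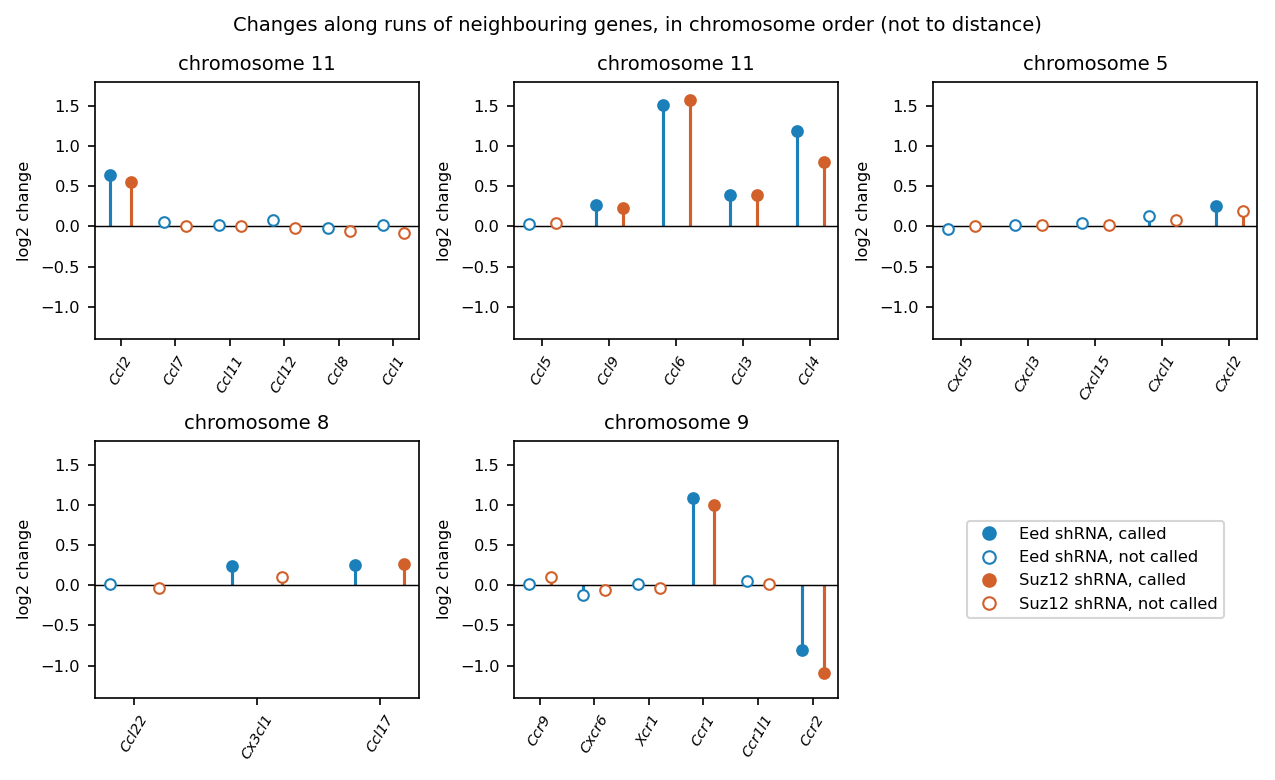
Log2 change of members along 5 runs of neighbouring genes, in chromosome order and not to distance, for Eed shRNA and Suz12 shRNA against control; filled points were called. The chromosome 11 run from Ccl5 to Ccl4 shows 4 genes up and Ccl5 near 0, and in the chromosome 9 run Ccr1 is up and Ccr2 down.

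Receptors for other chemoattractants use the same signalling route as the chemokine receptors, and many of them rose. Of 13 measured genes of a list of 17, 7 were called higher and 1 lower under Eed shRNA, and 7 higher and 2 lower under Suz12 shRNA, with median changes of 0.29 and 0.33. These were 61.5% and 69.2% of the list, where 21.8% and 21.2% of all genes were called, 8.78% and 8.25% of them higher. The list was chosen with earlier results of these data known. All 13 genes were above the background guide in at least 1 group, while all genes include dim ones, so these shares are not like for like. C5ar1, the receptor of complement C5a, read 7.58, 7.98 and 7.41 in the controls, 9.02, 9.17 and 8.91 under Eed shRNA, and 8.96, 8.98 and 8.99 under Suz12 shRNA. It rose by 1.37 (2.59-fold, adjusted p = 3.34e-05) and 1.32 (2.49-fold, adjusted p = 4.27e-05), with control replicate 2 again the highest control and no overlap. Ptafr, the platelet-activating factor receptor, rose by 1.07 (adjusted p = 1.02e-06) and 1.01 (adjusted p = 1.31e-06). Hrh4, the histamine receptor of eosinophils and mast cells, rose by 1.09 (adjusted p = 1.63e-05) and 1.03 (adjusted p = 2.32e-05). S1pr4, a sphingosine-1-phosphate receptor of blood cells, rose by 0.79 (adjusted p = 2.13e-06) and 0.65 (adjusted p = 6.83e-06). The complement receptor C3ar1 (0.94 and 1.06), the leukotriene B4 receptor Ltb4r1 (0.56 and 0.63) and the UDP-glucose receptor P2ry14 (0.29 and 0.33) were also called higher in both. Gpr183, the receptor for oxysterols, was the gene called lower in both comparisons (-0.34 and -0.33). S1pr3 (-0.17) was called lower under Suz12 shRNA, and 1 gene was called lower there when control replicate 3, any 1 Eed shRNA replicate, or Suz12 shRNA replicate 1 or 3 was left out, when the 2 groups were fitted alone and with a replicate block.

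Among genes that dampen chemokine receptors, the calls made were in 1 direction. Of 17 measured regulators (of a list of 19 RGS proteins, arrestins, receptor kinases and others), 8 were called higher and 0 lower under Eed shRNA, and 9 higher and 0 lower under Suz12 shRNA, with a median change of 0.16 in each. These were 47.1% and 52.9% of the list, where 8.78% and 8.25% of all genes were called higher and 13.1% and 12.9% lower. This list too was chosen with earlier results of these data known. Of its 17 genes, 15 were above the background guide in at least 1 group, while all genes include dim ones. The remaining 9 under Eed shRNA and 8 under Suz12 shRNA were not called. Among these in both comparisons were the receptor kinase genes Grk3, Grk4, Grk5 and Grk6, with changes from -0.04 to 0.16. The arrestin genes Arrb1 (0.25 and 0.20) and Arrb2 (0.27 and 0.24), whose products uncouple and internalize receptors, rose in both. Rgs14 (0.35 and 0.34) and Gpsm3 (0.34 and 0.22), regulators of G protein alpha subunits, rose in both, and the Suz12 call of Gpsm3 was lost without control replicate 2 or 3 or any 1 Suz12 shRNA replicate. Rgs1, a G protein deactivator, read 7.49, 8.32 and 7.48 in the controls, 8.71, 8.77 and 8.56 under Eed shRNA, and 8.55, 8.53 and 8.76 under Suz12 shRNA. It rose by 0.92 (adjusted p = 0.00507) and 0.85 (adjusted p = 0.00847), and control replicate 2 was once more the highest control. Rgs1 was named after its values were seen.

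Of 44 measured genes for G proteins and downstream signalling (of a list of 47), 10 were called higher and 0 lower under Eed shRNA, and 7 higher and 2 lower under Suz12 shRNA. These shares of 22.7% and 20.5% were near those of all genes, 21.8% and 21.2%, and the median changes were 0.04 and 0.05. The Src-family kinase gene Fgr rose by 0.60 (adjusted p = 3.45e-05) and 0.82 (adjusted p = 4.02e-06). Ptk2b, a calcium-activated kinase of adhesion signalling, rose by 0.43 and 0.34, the phospholipase gene Plcb2 by 0.45 and 0.35, and the G protein gene Gnaq by 0.32 and 0.27. The genes called lower under Suz12 shRNA were the G protein subunit genes Gng11 (-0.24, adjusted p = 0.0205) and Gna15 (-0.18, adjusted p = 0.0471). Under Suz12 shRNA the count called higher was 12 after quantile normalization and 17 after cyclic loess. The count called lower was 0 without control replicate 1 and Suz12 shRNA replicates 2 and 3 in turn, and 1 without control replicate 3, Eed shRNA replicate 2 or Suz12 shRNA replicate 1. Quantile normalization, cyclic loess, the removal of dim genes and fits of the 2 groups alone each left 1 called lower. Under Eed shRNA 1 gene was called lower without control replicate 2 or without dim genes, and 2 after median centring or with trended, robust eBayes.

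**Figure D4:**
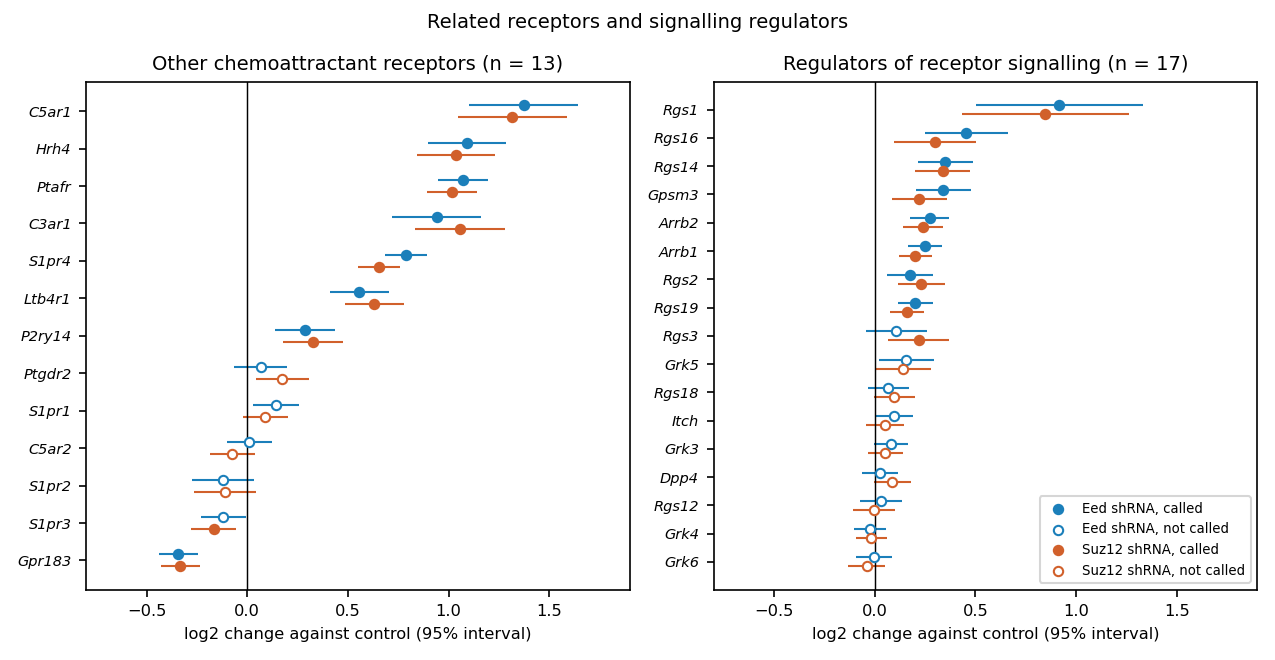
Log2 change with its 95% interval for the measured receptors of other chemoattractants (13) and for the RGS, arrestin and kinase regulators (17) under Eed and Suz12 shRNA; filled points were called at an adjusted p under 0.05. C5ar1, Hrh4, Ptafr and C3ar1 lie near or above 1 in both comparisons, and no regulator was called lower.

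Regulators that act on chemokine genes through interferon and NF-kB signalling were called in both directions. Of 20 measured genes of a list of 22, 4 were called higher and 2 lower under Eed shRNA (30%, where 21.8% of all genes were called), and 4 higher and 1 lower under Suz12 shRNA (25%, where 21.2% were). The median changes were 0.03 and 0.07. Irf8, a transcription factor of monocytes and dendritic cells, read 11.01, 11.03 and 11.30 in the controls, 9.82, 9.83 and 10.10 under Eed shRNA, and 10.09, 10.13 and 10.02 under Suz12 shRNA. All knockdown arrays were below all controls, and it fell by 1.20 (2.29-fold, adjusted p = 1.07e-05) and 1.03 (2.04-fold, adjusted p = 2.8e-05). Irf5, a transcription factor downstream of Toll-like receptors, was the other gene called lower under Eed shRNA (-0.22, adjusted p = 0.0378). Tlr4, the endotoxin receptor gene, rose by 0.62 and 0.52, Irf9, part of the interferon-activated complex ISGF3, by 0.25 and 0.24, and the NF-kB subunit gene Rel by 0.23 and 0.23. Il1b, the interleukin-1 beta gene, rose by 0.56 and 0.64, with the Eed call lost without Eed shRNA replicate 1 (0.49). Control replicate 2 carried weight here as well: without it, 9 and 8 genes of the list were called higher, and 1 lower under Eed shRNA. Likewise 1 was called lower under Eed shRNA without control replicate 3, Eed shRNA replicate 2 or 3, or any 1 Suz12 shRNA replicate, and 2 were called lower under Suz12 shRNA without Suz12 shRNA replicate 1. Quantile normalization, cyclic loess and fits of the 2 groups alone also left 1 lower under Eed shRNA, and median centring and the fit with a replicate block gave 2 lower under Suz12 shRNA. The part of these genes in the chemokine changes was not tested.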

How the data were processed

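Total RNA of 9 samples was measured on Affymetrix arrays. The authors deposited log2 expression values made by RMA (robust multi-array average), per the submitters' processing notes; its software version is not given in the sources used here. Of 34760 probe sets, 21640 carried 1 gene symbol in GEO's platform annotation and were used, giving 19937 genes (brightest probe set per gene). Groups came from the sample labels. The main analysis estimated 3 group means over the 9 arrays (limma 3.58.1, R 4.3.3; lmFit, then eBayes; two-sided tests; 6 residual degrees of freedom). Calls needed a Benjamini-Hochberg adjusted p under 0.05 over all genes. The code was tested on simulated data. The members and gene lists were chosen with earlier results of these data known. The text names every called member, with array values from 1.5-fold change, the 5 ligands and 5 receptors with the highest control means, receptor and ligand partners, and up to 4 genes per list with the smallest adjusted p. Array values of smaller changes, the named interferon, NF-kB and glycosaminoglycan genes, and Rgs1, Gng11, Gna15, C3ar1, Ltb4r1, P2ry14, Gpr183, S1pr3, Ccr1l1, Cxcl12 and Ccl25 were added after values were seen. So were Grk3, Grk4, Grk5 and Grk6. The alternatives were quantile normalization, median centring, cyclic loess, probe set means, a dim-gene filter, trended and robust eBayes, separate fits, a replicate block and leaving out each array. With 3 arrays a group, the number of arrays limits the precision.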

Additional observations from a re-analysis of the deposited data

How the results depend on the processing

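Quantile normalization, cyclic loess, averaging a gene's probe sets and trended, robust eBayes changed no call of a member in the comparisons with the control. The median shift over all genes was at most 0.04 (log2, in size) under another scaling, and single genes could shift by more. With the spread taken from the 2 groups compared, 5 ligands (9 in the main analysis) were called higher under Eed shRNA, 4 (7) higher and 1 (2) lower under Suz12 shRNA, and 1 member (0) between the knockdowns. Median centring called 2 ligands (1) lower under Eed shRNA, gaining Cxcl9. Without dim genes, and with a replicate block, 1 ligand (2) was called lower under Suz12 shRNA. Deviations of same-numbered arrays from their group means had correlations of -0.17 to 0.20 over 9 pairs. Differently numbered arrays of different groups gave -0.33 to 0.27. With 3 arrays a group these values cannot decide whether the numbers pair the arrays, and the labels do not say. The block gave 4242 calls over all genes under Eed shRNA (4352 without it) and 4049 (4222) under Suz12 shRNA. Leaving out 1 array gave 9 to 13 members called under Eed shRNA, 8 to 11 under Suz12 shRNA and 0 to 1 between the knockdowns. Ligands called higher numbered 4 to 8 and 4 to 7, ligands lower 1 to 2 in each, and receptors higher 1 to 3 and 1 to 2, with 2 receptors lower throughout. No result reversed. Ccl6, Ccl9, Ccl2, Cxcl10, Ccr1, Ccr2 and Cx3cr1 were called in every alternative in both comparisons with the control. For members near or below the background guide of 6.32, signal over background limits what could be seen.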

Other observations

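Chemokines outside the symbol rule were counted as well. Of 11 such genes and related receptors, 2 were called higher and 0 lower under Eed shRNA, and 3 higher and 1 lower under Suz12 shRNA. These were 18.2% and 36.4% of the list, where 21.8% and 21.2% of all genes were called. The count called higher under Eed shRNA was 4 after cyclic loess and 1 after median centring. Ppbp, which encodes the platelet chemokine CXCL7 and lies between Cxcl5 and Cxcl3, read 6.13, 5.71 and 5.83 in the controls, 6.98, 6.37 and 6.61 under Eed shRNA, and 6.74, 6.62 and 6.71 under Suz12 shRNA. All knockdown arrays were above all controls, and it rose by 0.76 (1.70-fold, adjusted p = 0.00303) and 0.80 (1.74-fold, adjusted p = 0.00255). Its neighbour Pf4, the other platelet chemokine gene, changed by 0.04 and -0.01 and was not called. Cklf, a chemokine-like factor, rose by 0.25 (adjusted p = 0.0225) and 0.39 (adjusted p = 0.00193). Leaving out control replicate 1, control replicate 2, Eed shRNA replicate 1 or Eed shRNA replicate 2 ended its Eed call, which left 1 gene called higher. Gpr35 rose by 0.21 under Suz12 shRNA, lost without control replicate 3 or Suz12 shRNA replicate 2, and Cmtm7 fell by 0.14 there (adjusted p = 0.0455), lost in 10 alternatives that included leaving out each control.

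Chemokines are held at cell surfaces by glycosaminoglycan chains. Of 10 measured carriers and chain-building enzymes (of a list of 11), 3 were called higher and 1 lower under Eed shRNA and 2 higher and 0 lower under Suz12 shRNA. These were 40% and 20% of the list, where 21.8% and 21.2% of all genes were called. The syndecan gene Sdc3 rose by 0.59 (adjusted p = 0.000268) and 0.52 (adjusted p = 0.000651), and Cd44, the hyaluronan receptor gene, by 0.26 (adjusted p = 0.00351) and 0.20 (adjusted p = 0.0159). The Suz12 call of Cd44 was lost without control replicate 1 (0.17) or Suz12 shRNA replicate 3 (0.18), and after median centring (adjusted p = 0.0522). After median centring or without control replicate 1, 1 carrier was called higher under Suz12 shRNA. Sdc4 rose by 0.45 under Eed shRNA (adjusted p = 0.00482) and changed by 0.27 under Suz12 shRNA, not called (adjusted p = 0.0619). Ext1, a heparan sulfate polymerase gene, fell by 0.33 under Eed shRNA (adjusted p = 0.00518) and was not called under Suz12 shRNA (-0.01).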
